A study of Homo sapiens with 4 samples.

Results

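The genes described here encode the proteins of the cytosolic and the mitochondrial ribosome. They were the 165 of 19974 RefSeq protein-coding genes on chromosomes 1 to 22 and X whose symbol begins with RPL or RPS and a digit, is RPSA or RPLP0 to RPLP2, or begins with MRPL or MRPS, leaving out RPS27L and the kinases of the RPS6K family. The cytosolic set held 88 genes, 33 of the small and 55 of the large subunit by name, and the mitochondrial set held 77, 28 small and 49 large. Of the 88 cytosolic symbols, 11 are not plain subunit names: 7 are paralogs such as RPL7L1 and RPL36AL, 3 are readthrough genes such as RPS10-NUDT3, and 1 is RPS19BP1, whose product binds RPS19. Within this set the symbol was the only thing that chose a gene, but the set itself was chosen with earlier results of these data known.

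The data are p53 ChIP-seq peak lists from H1299, an established line of human non-small-cell lung carcinoma that is p53-/- by its labels. The cells expressed either wild-type p53 (p53WT, 2 libraries) or CASM34 (2 libraries), which the title of the series places among cancer-associated synonymous mutations, that is, changes that leave the encoded protein the same. All 4 libraries were precipitated with the p53 antibody DO-1; how the cells came to express p53 is not given in the sources used here, nor is whether a group's libraries were separate cultures, so their spread may be technical. Each library is called below by its group and the number in its title. Where libraries of the same number are compared as a pair, that pairing is an assumption taken from the titles.

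Cytosolic ribosomes make nearly all proteins of the cell and are built in the nucleolus, and many of their genes also carry small nucleolar RNAs (snoRNAs) in introns. Their messages usually begin with a run of pyrimidines, the 5′ terminal oligopyrimidine tract, through which translation is tied to growth signals. Mitochondrial ribosomes make the few proteins encoded by mitochondrial DNA, and all of their proteins are encoded in the nucleus. The ribosome is also tied to p53 itself: free RPL5 and RPL11, together with the 5S RNA, bind MDM2, the ubiquitin ligase that degrades p53, so that failed ribosome assembly raises p53.

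The libraries differed more by number than by group. The lists held 1604 and 1712 peaks in p53WT 1 and CASM34 1, and 4961 and 3211 in p53WT 2 and CASM34 2, on chromosomes 1 to 22, X and Y. Read depth was unknown, and a gene without a peak was not shown to lack p53. A gene was said to have a peak if the distance from a summit to one of its annotated ends was at most 2 kb. By that rule 10.3% of all protein-coding genes had one in p53WT 2 and 6.96% in CASM34 2, but 0.375% in p53WT 1 and 0.561% in CASM34 1. Every count below is read against these shares.

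Few ribosomal protein genes had a peak, and those of the cytosolic ribosome had one more often than those of the mitochondrial ribosome. In p53WT 2, 8 of 88 cytosolic genes had a peak (9.09%, 95% interval 4.01 to 17.1) against 3 of 77 mitochondrial genes (3.90%, 0.811 to 11.0), beside the 10.3% of all genes. In CASM34 2 there were 12 cytosolic genes (13.6%, 7.25 to 22.6) and 1 mitochondrial gene (1.30%, 0.0329 to 7.02), beside 6.96% of all genes. The intervals are exact Clopper-Pearson intervals, take genes as independent and cover counting error only. The share of all genes lay inside both intervals in p53WT 2. In CASM34 2 it lay below the cytosolic interval and just inside the upper bound of the mitochondrial one. The first of these rests on the 11 symbols that are not plain subunit names, of which 3 were called in CASM34 2. The 77 plain subunit names had 9 calls there (11.7%, 95% interval 5.49 to 21), an interval that holds the 6.96% of all genes, and 7 calls in p53WT 2 (9.09%, 3.73 to 17.8).

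The libraries numbered 1 held almost none of these genes. In p53WT 1, 1 cytosolic gene had a peak (1.14%, 95% interval 0.0288 to 6.17), beside 0.375% of all genes. In CASM34 1 there were 2 (2.27%, 0.276 to 7.97), beside 0.561%. No mitochondrial gene had a peak in either, 0 of 77, for which the exact 95% interval reaches 4.68%. The limit from 3 counts of the total is 3.90%. With so few peaks a lower share than the background was not detectable.

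**Figure D1:**
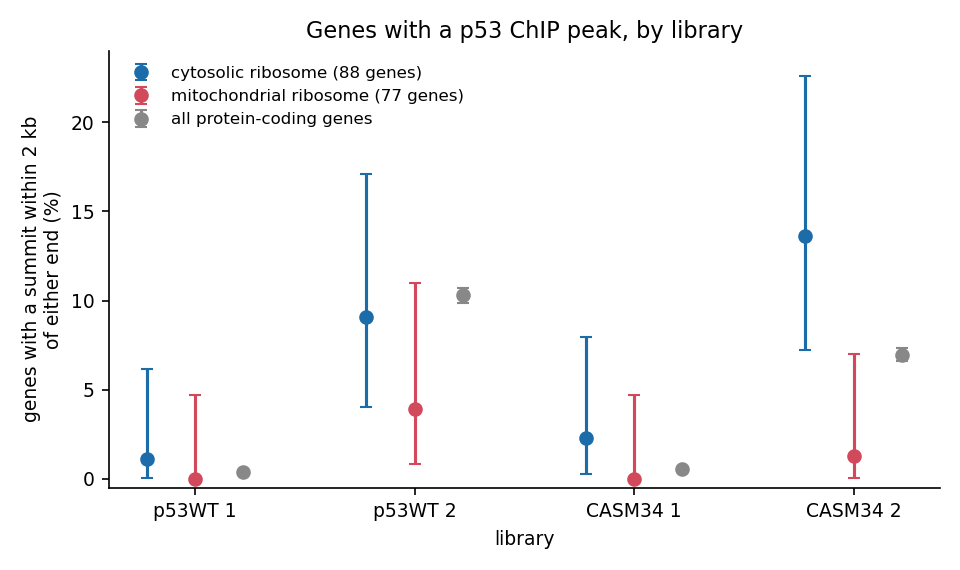
Share of genes with a summit within 2 kb of either end (%, y axis) in each of the 4 libraries (x axis), for the 88 cytosolic genes, the 77 mitochondrial genes and all 19974 protein-coding genes. Points are the shares and bars the exact 95% intervals for counting error; the cytosolic and mitochondrial points lie farthest apart in CASM34 2, at 13.6% and 1.30%.

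With 2 libraries in each group, no difference between the groups was shown by these shares. For cytosolic genes the mean share was 5.11% ± 5.62 (SD, n = 2) with p53WT. With CASM34 it was 7.95% ± 8.04 (SD, n = 2), a difference of -2.84 percentage points that is smaller than either SD. These SDs span the gap between the libraries numbered 1 and 2. For mitochondrial genes the mean was 1.95% ± 2.75 (SD, n = 2) with p53WT. With CASM34 it was 0.649% ± 0.918 (SD, n = 2), a difference of 1.30 points. Within number 1, p53WT minus CASM34 was -1.14 points for cytosolic and 0.00 for mitochondrial genes. Within number 2 it was -4.55 and 2.60 points, while all protein-coding genes differed by 3.30 points there. The SD of the 2 within-number differences was 2.41 points for cytosolic and 1.84 for mitochondrial genes (n = 2). The difference for cytosolic genes turned to 1.14 without p53WT 1 and to 2.84 without CASM34 2, and that for mitochondrial genes turned to -0.65 without p53WT 2. No p was computed, since 2 libraries against 2 cannot give an exact two-sided permutation p below 0.333.

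The lead of the cytosolic genes in p53WT 2 depended on how a gene was searched. RefSeq promoter entries with a strand and a start were matched for 138 of the 165 genes, 69 of each ribosome. When only these starts were searched, 4 of 69 cytosolic and 4 of 69 mitochondrial genes had a summit within 2 kb in p53WT 2, 5.80% each, beside 10.7% of all genes with a start. In CASM34 2 there were 7 and 2 of 69, 10.1% and 2.90%, beside 6.96%. In p53WT 2 the lead of the cytosolic genes was therefore gone: peaks counted at RPL5 and RPL7 belong to genes without a start entry, those at RPL7L1 and RPL6 lay more than 2 kb from a listed start, and MRPL44 was gained.

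The cytosolic share stayed above the mitochondrial one in both libraries numbered 2 at each distance tried from gene ends, 0.5 to 50 kb. Within 10 kb of either end, 10 cytosolic genes (11.4%) and 6 mitochondrial genes (7.79%) had a peak in p53WT 2, beside 13.9% of all genes. In CASM34 2 the counts were 14 (15.9%) and 2 (2.60%), beside 9.47%. Within 50 kb the mitochondrial share in CASM34 2 reached 18.2%, next to 18.4% of all genes, and the cytosolic share was 26.1%. In that library the mitochondrial share was thus below that of all genes at the shorter distances and next to it at 50 kb. At the longer distances more sequence is searched around long genes than around short ones. The median gene length was 8.62 kb for mitochondrial, 5.05 kb for cytosolic and 24.2 kb for all genes.

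**Figure D2:**
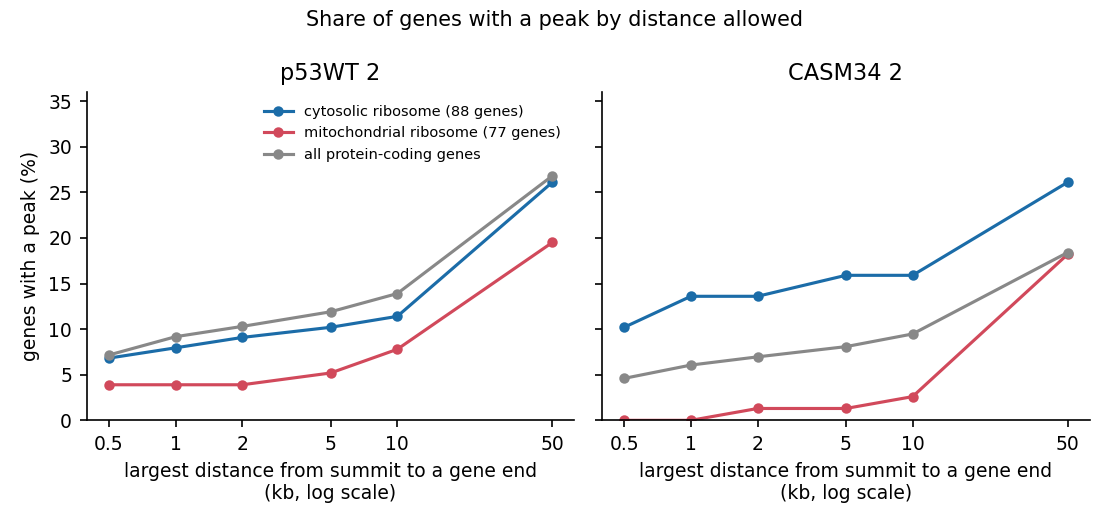
Share of genes with a peak (%, y axis) against the largest distance allowed between a summit and a gene end (kb, log scale, x axis) in p53WT 2 and CASM34 2. In CASM34 2 the cytosolic line runs above all genes at every distance, and the mitochondrial line runs below until it meets all genes at 50 kb, 18.2% against 18.4%.

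Across the 4 libraries, 23 of the 165 genes had a peak in at least 1, which is 13.9% beside 14.4% of all protein-coding genes. By ribosome these were 19 of 88 cytosolic genes (21.6%) and 4 of 77 mitochondrial genes (5.19%). A single library called 20 of the 23, RPL7 and RPL7L1 were called in 2 and RPS19 in 3, and none was called in all 4. Of all protein-coding genes, 3.35% had a peak in 2 or more libraries and 0.0951% in all 4. Both libraries numbered 2 called 3 members (1.82%, beside 3.07% of all genes), 27.3% of the 11 members of p53WT 2 and 23.1% of the 13 members of CASM34 2. Over all protein-coding genes the shared calls were 29.9% and 44.1% of the 2 lists.

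RPS19, a small subunit protein and the gene most often mutated in Diamond-Blackfan anaemia, had the strongest member peak in both CASM34 lists. In p53WT 2 it came second to RPL7L1. It lies on chromosome 19 from 41860255 to 41872925 on the plus strand. Its peak had a deposited −log10 q of 5.79 in p53WT 2, 8.72 in CASM34 1 and 15.37 in CASM34 2. In p53WT 1 it had no peak, and the nearest summit lay 3020 kb away. The gene thus had a peak in both CASM34 libraries and in 1 of the 2 p53WT libraries. The peaks overlapped one another by 443 to 495 bases, and their summits, at 41860384, 41860693 and 41860514, lay between 20 bases upstream and 289 bases downstream of a start at 41860404. Among the lists, the peak ranked at percentile 80.5 in p53WT 2, 55.2 in CASM34 1 and 87.6 in CASM34 2, where 100 is the strongest peak of a list. Of all protein-coding genes, 0.35% had a peak in 3 or more libraries.

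RPL7L1, a paralog of the large subunit protein RPL7, was called in both libraries numbered 2, but not at its start. The gene runs from 42879616 to 42889900 on chromosome 6, plus strand. Its summits lay 747 bases beyond the far end in p53WT 2 (−log10 q of 8.18, rank percentile 86.7) and 841 bases beyond it in CASM34 2 (8.05, percentile 77.5). Both summits were inside the neighbouring gene PEX39, 174 and 80 bases from its end at 42890821, which is the start of PEX39 on the minus strand. The 2 peaks overlapped by 197 bases. They lay 11031 and 11125 bases from the start of RPL7L1.

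The promoters below lay at the edge of the peaks or beside them, and are not the peak sequences. No summit fell inside a printed window, and the peaks at RPS7, RPLP1 and MRPL41 began beyond it. RPS19 and PEX39 stand for the peaks found in both libraries numbered 2. RPS16, RPS7 and RPLP1 are cytosolic genes with a peak just past the start in 1 library, and MRPS35 and MRPL41 are their mitochondrial counterparts; these 5 were chosen after their values were seen. Each sequence is from RefSeq (GRCh38.p14), on the gene's own strand, from 180 bases before to 20 bases into the transcript, at the most upstream listed start. Capitals mark the run of C and T across the start where that run has 8 or more letters, and otherwise the first transcribed base. The windows are chr19:41860075-41860274 (plus) for RPS19, chr19:39435930-39436129 (minus) for RPS16, chr2:3575080-3575279 (plus) for RPS7, chr15:69452638-69452837 (plus) for RPLP1, chr12:27710652-27710851 (plus) for MRPS35, chr9:137551699-137551898 (plus) for MRPL41 and chr6:42890802-42891001 (minus) for PEX39.
RPS19: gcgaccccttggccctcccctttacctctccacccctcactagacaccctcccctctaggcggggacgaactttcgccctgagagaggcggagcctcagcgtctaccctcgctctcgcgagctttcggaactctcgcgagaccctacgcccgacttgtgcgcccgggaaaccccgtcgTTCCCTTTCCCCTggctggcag
RPS16: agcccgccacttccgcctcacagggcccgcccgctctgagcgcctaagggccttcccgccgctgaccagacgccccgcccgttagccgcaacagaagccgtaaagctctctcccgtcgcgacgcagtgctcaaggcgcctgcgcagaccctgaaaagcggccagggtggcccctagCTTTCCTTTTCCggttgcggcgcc
RPS7: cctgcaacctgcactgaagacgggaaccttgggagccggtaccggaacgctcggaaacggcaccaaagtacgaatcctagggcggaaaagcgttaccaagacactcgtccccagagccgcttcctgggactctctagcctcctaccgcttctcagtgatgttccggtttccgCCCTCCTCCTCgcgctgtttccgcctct
RPLP1: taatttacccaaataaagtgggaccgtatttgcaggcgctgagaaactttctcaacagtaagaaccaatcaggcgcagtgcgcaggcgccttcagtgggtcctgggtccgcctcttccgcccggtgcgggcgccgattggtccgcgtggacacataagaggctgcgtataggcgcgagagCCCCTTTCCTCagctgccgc
MRPS35: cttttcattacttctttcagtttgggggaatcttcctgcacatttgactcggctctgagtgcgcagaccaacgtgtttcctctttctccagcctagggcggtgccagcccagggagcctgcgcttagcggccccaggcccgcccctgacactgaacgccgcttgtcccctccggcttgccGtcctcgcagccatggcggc
MRPL41: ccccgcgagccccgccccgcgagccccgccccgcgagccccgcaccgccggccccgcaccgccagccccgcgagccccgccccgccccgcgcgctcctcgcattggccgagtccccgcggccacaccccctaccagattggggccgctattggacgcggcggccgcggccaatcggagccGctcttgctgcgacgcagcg
PEX39: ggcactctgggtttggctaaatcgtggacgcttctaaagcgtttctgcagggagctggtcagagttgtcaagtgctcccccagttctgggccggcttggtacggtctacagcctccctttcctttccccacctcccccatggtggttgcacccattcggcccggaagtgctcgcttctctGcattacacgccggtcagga

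Sequence motifs of 6 kinds were searched in these stretches on both strands. The core of ETS factor sites was CCGGAA. The motif of YY1, a zinc finger factor, was AAGATGGC. The CCAAT box was searched as CCAAT. The TATA box was searched as TATAAA, and the GC box as GGGCGG. The palindrome of NRF1, a regulator of genes for mitochondria, was the last. RPS19 held none of them. RPS7 held CCGGAA at -139 and -20, where positions count from the start (+1, no 0) to the first base of the match on the gene's strand. MRPL41 held CCAAT or its complement at -79, -44, -32 and -12, and GGGCGG or its complement at 4 further places. RPLP1 held CCAAT at -116 and -45 and GGGCGG at -64. PEX39 held CCGGAA at -20. The run of pyrimidines spanned 13 bases in RPS19, 12 in RPS16 and 11 each in RPS7 and RPLP1. In RPS16 the match to CCGGAA, on the other strand, overlaps that run.

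RPL7, a large subunit protein gene on chromosome 8 (73290242 to 73294466), was the third gene called in both libraries numbered 2. In p53WT 2 the summit lay 23 bases inside the gene's end, with a −log10 q of 2.58. In CASM34 2 the stronger of 2 peaks had its summit 272 bases outside that end, with a −log10 q of 3.94, and the other lay 1051 bases outside it, with 2.57. The summits of the p53WT 2 peak and the stronger CASM34 2 peak were 295 bases apart, and both lay within 2 kb of RDH10, a retinol dehydrogenase gene, whose end is 159 and 136 bases from them. In p53WT 1 a summit lay 4.42 kb from RPL7, and in CASM34 1 the nearest was 4450 kb away.

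At most members with a listed start, the peak sat just past it. The strongest summit of each called gene was taken, where it lay within 2 kb of a listed start. In p53WT 2 it was downstream of the nearest start at 5 of 7 such members, and at 74.7% of 1516 such protein-coding genes. In CASM34 2 it was again 5 of 7, beside 75.4% of 986 such genes. The 5 lay 110 to 315 bases downstream in CASM34 2 (RPS19, RPLP1, RPL36, RPS6 and RPS10) and 116 to 425 bases downstream in p53WT 2 (MRPL41, MRPS35, RPS16, RPL13 and RPL15). Members therefore took the position that gene-end peaks of these libraries generally had.

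**Figure D3:**
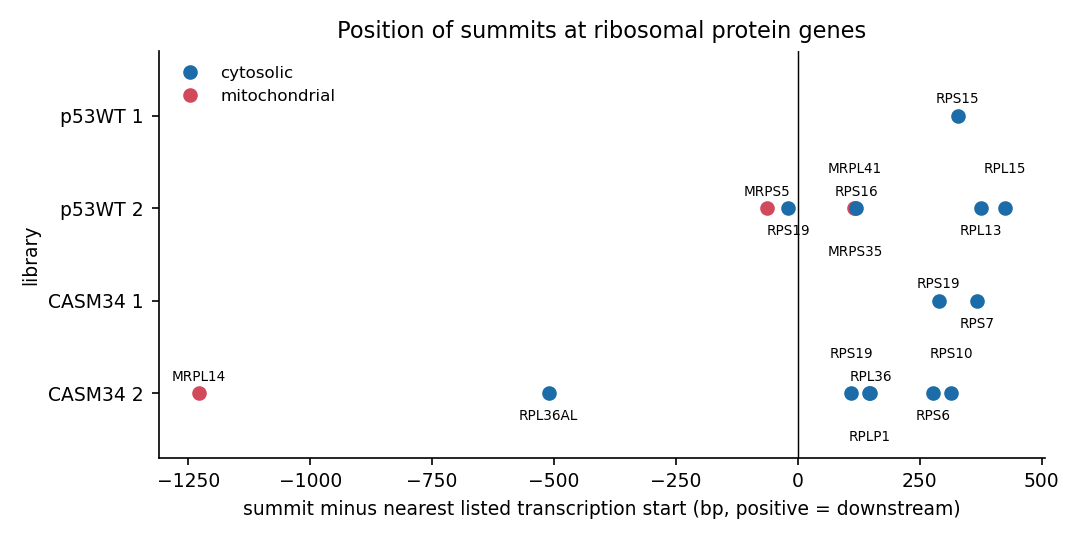
Position of the best summit of each member relative to its nearest listed start (bp, x axis, positive downstream) in each library (y axis), for members with a start entry and a summit within 2 kb of it. Blue points are cytosolic and red points mitochondrial genes; most points lie between 100 and 500 bp downstream, and MRPL14 lies farthest upstream at -1228.

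Among the cytosolic small subunit genes, RPS16 was called beside RPS19 in p53WT 2. Its summit lay 120 bases past the start, with a −log10 q of 4.04 and a rank percentile of 69.1, and no other gene lay within 2 kb. RPS20 in CASM34 2 had a −log10 q of 3.35, with its summit 124 bases inside the gene, 481 bases from the snoRNA gene SNORD54. RPS6, the subunit protein phosphorylated by the S6 kinases, had 2.57 in CASM34 2, its summit 278 bases past the start. RPS10 and the readthrough RPS10-NUDT3 share 1 end and 1 peak in CASM34 2, with a −log10 q of 1.80, so the 12 cytosolic calls of that library rest on 11 peaks. RPS15 was the sole member called in p53WT 1, 328 bases past its start, with a −log10 q of 2.42 and a rank percentile of 10.5. By subunit, 2 of 33 small subunit genes were called in p53WT 2 (6.06%, exact interval 0.743 to 20.2), beside 10.3% of all genes. In CASM34 2 it was 5 of 33 (15.2%, 5.11 to 31.9), beside 6.96%. Both intervals hold the share of all genes.

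Among the cytosolic large subunit genes, 6 of 55 were called in p53WT 2 (10.9%, exact interval 4.11 to 22.2), beside 10.3% of all genes. In CASM34 2 it was 7 of 55 (12.7%, 5.27 to 24.5), beside 6.96%. These intervals, too, hold the share of all genes, and a difference between the subunits was not tested. RPL7 and RPL7L1 were called in both libraries. RPL6 in p53WT 2 had a −log10 q of 3.12, but its summit lay 382 bases outside the gene and inside PTPN11, which encodes the phosphatase SHP2, 270 bases from the end of that gene. RPL13 (2.42) and RPL15 (1.35, the weakest member call of that list) completed the list of p53WT 2, with RPL5 described below. In CASM34 2, RPL36AL had a −log10 q of 4.19. Its summit lay 511 bases upstream of the start and inside MGAT2, a gene of N-glycan synthesis, 338 bases from its end. RPLP1 and RPLP2 encode the acidic proteins of the ribosomal stalk. RPLP1 had a −log10 q of 3.45 with its summit 147 bases past the start, whereas the RPLP2 summit (1.95) lay 559 bases beyond the gene and 3468 bases from its start. RPL37 (2.65) and RPL36 (2.70) had summits 183 and 149 bases inside their genes.

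**Figure D4:**
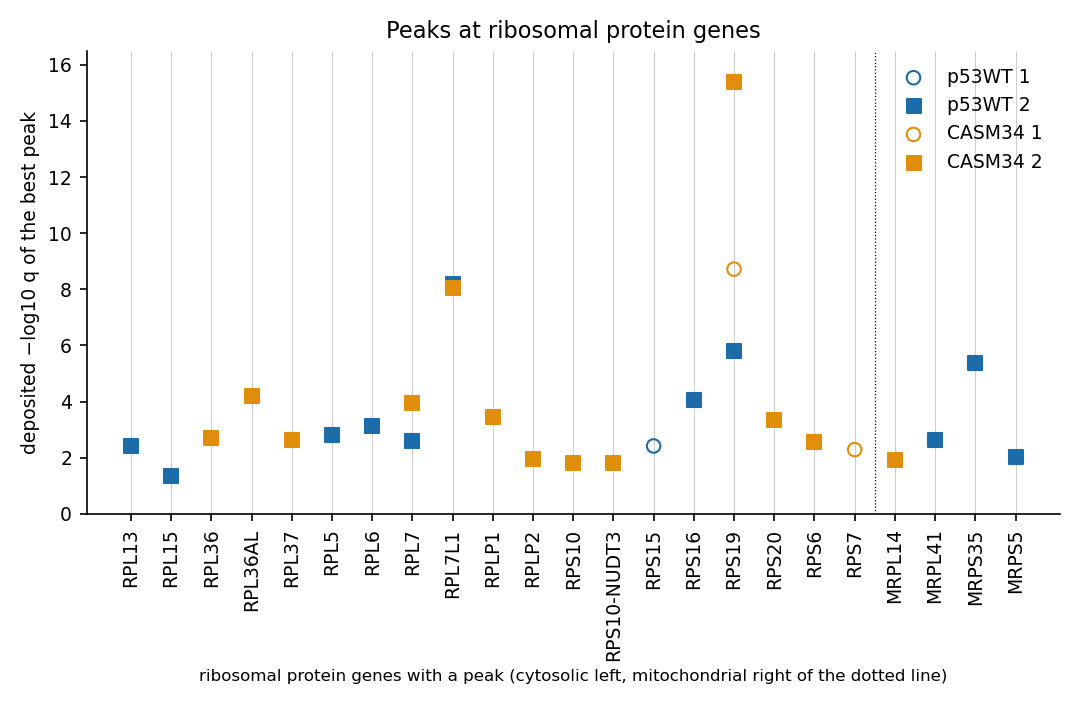
Deposited −log10 q of the best peak (y axis) at each of the 23 members with a peak (x axis), with circles for the libraries numbered 1, squares for those numbered 2, blue for p53WT and orange for CASM34. Within CASM34 2, RPS19 stands highest at 15.37, and within p53WT 2, RPL7L1 does at 8.18, while most genes carry a single symbol.

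The 4 mitochondrial genes with a peak were called in 1 library each. MRPS35, a small subunit protein, had the strongest of the 3 in p53WT 2, with a −log10 q of 5.39 and a summit 118 bases past the start, 203 bases from the divergent non-coding gene MRPS35-DT. MRPL41, of the large subunit, had 2.63 in the same library with its summit 116 bases past the start. MRPS5 had 2.02 with a summit 131 bases inside the gene. In CASM34 2 the only call was MRPL14, with a −log10 q of 1.93. It lay 1084 bases outside the gene and inside TMEM63B, and it was lost when summits were sought within 1 kb. No mitochondrial gene was called in both libraries numbered 2 at gene ends.

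MRPL44, of the large subunit, was the exception when listed starts were searched instead of gene ends. A start at 223957463 on chromosome 2, inside the gene (223950854 to 223967714), had a summit 52 bases upstream in p53WT 2 (−log10 q of 2.82) and 93 bases downstream in CASM34 2 (3.18). These peaks, 223957338 to 223957654 and 223957386 to 223957693, overlap, and no other gene lay within 2 kb of their summits. They lay 6557 and 6702 bases from the nearer gene end and so were outside the rule. Other, stronger summits lay nearer to an end of MRPL44, at 5705 bases in p53WT 2 (−log10 q of 6.81) and 6049 bases in CASM34 2 (6.41). RPL6 likewise had a CASM34 2 summit 34 bases upstream of an inner start (−log10 q of 2.57).

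The members on either side of the 2 kb limit are given here as a description. Inside it, the farthest in p53WT 2 were RPL15, RPL7L1 and RPL13, at 1012, 747 and 429 bases, and in CASM34 2 MRPL14, RPL7L1 and RPLP2, at 1084, 841 and 559 bases. Outside it, the nearest in p53WT 2 were RPL11, MRPL35 and MRPL44, at 3108, 4090 and 5705 bases. In CASM34 2 they were RPLP0, RPL6 and MRPL44, at 2139, 4138 and 6049 bases. RPLP0, whose product forms the base of the ribosomal stalk, was added to the 12 cytosolic calls of CASM34 2 when any part of a peak within 2 kb was enough, which made 13.

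Many of these peaks also lay at another gene. In p53WT 2, 7 of the 11 members with a peak had a second protein-coding gene that contained the summit or had an end within 2 kb of it, and in CASM34 2 it was 7 of 13, which includes RPS10 and its readthrough. RPL7L1, RPL6, RPL36AL and MRPL14 had their summit inside the neighbour and outside the member, as did RPL7 in CASM34 2. The matching share over all called protein-coding genes was not computed, so these counts are not read as a trait of ribosomal protein genes. Which gene such a peak belongs to was not tested.

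The peaks at these genes were of ordinary strength. Over distinct peaks, the member median of the −log10 q was 2.82 in p53WT 2 (11 peaks) and 3.03 in CASM34 2 (12 peaks). All gene-end peaks of these libraries had medians of 2.77 and 2.92. Member values ran from 1.35 to 8.18 in p53WT 2 and from 1.80 to 15.37 in CASM34 2, where the weakest peak of either list was 1.31. The authors' deposited fold over background ran from 3.81 to 7.23 and from 3.89 to 8.0. With the limit set at a −log10 q of 3, cytosolic calls numbered 4 in p53WT 2 (4.55%) and 6 in CASM34 2 (6.82%), and mitochondrial calls 1 and 0, beside 3.96% and 3.43% of all genes. With each list cut to its 1604 strongest peaks, they numbered 3 and 4, and 1 and 0, beside 2.11% and 2.33%. With the limit at 5, cytosolic calls were RPS19 and RPL7L1 in both libraries numbered 2 (2 of 88 in each, 2.27%, beside 0.926% of all genes in p53WT 2 and 0.846% in CASM34 2). MRPS35 in p53WT 2 was the mitochondrial call at that level.

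The cytosolic proteins best known to bind MDM2 had 2 calls among 6 genes, in different libraries. A peak in at least 1 library was found at 14.4% of all protein-coding genes and 21.6% of cytosolic members. The count of 2 is too small to set apart from these shares. RPL5 had a peak in p53WT 2 alone, with a −log10 q of 2.82 and its summit at 92832194 on chromosome 1, 208 bases inside the gene and 535 bases from DIPK1A. RPS7 had a peak in CASM34 1 alone, with a −log10 q of 2.29 and its summit 367 bases past the start; in CASM34 2 the nearest summit was 10.5 kb away. RPL11 had none. Its nearest summit was 3.11 kb away in p53WT 2 and 46.8 kb in CASM34 2. RPL23, RPL26 and RPS27A had no peak in any library. Their nearest summits were 548, 62.2 and 46.5 kb away in p53WT 2 and 713, 52.9 and 182 kb away in CASM34 2.

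The 2 ribosomes differed in their promoters, whatever the peaks. In the window from 250 bases before to 50 after the most upstream start, a run of 8 or more C or T letters spanned the start in 43 of 69 cytosolic genes (62.3%) and 2 of 69 mitochondrial genes (2.90%), beside 4.6% of 15812 protein-coding genes. The ETS core CCGGAA was in 52.2% of cytosolic and 58.0% of mitochondrial promoters, beside 22.7% of all. The YY1 sequence AAGATGGC was in 10.1% and 29.0%, beside 3.86%. CCAAT was in 36.2% and 29.0%, beside 36.4%, GGGCGG in 53.6% and 59.4%, beside 58.3%, and TATAAA in 10.1% and 2.90%, beside 9.75%. The NRF1 palindrome was in 1 promoter of each ribosome (1.45%), beside 1.77%.

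**Figure D5:**
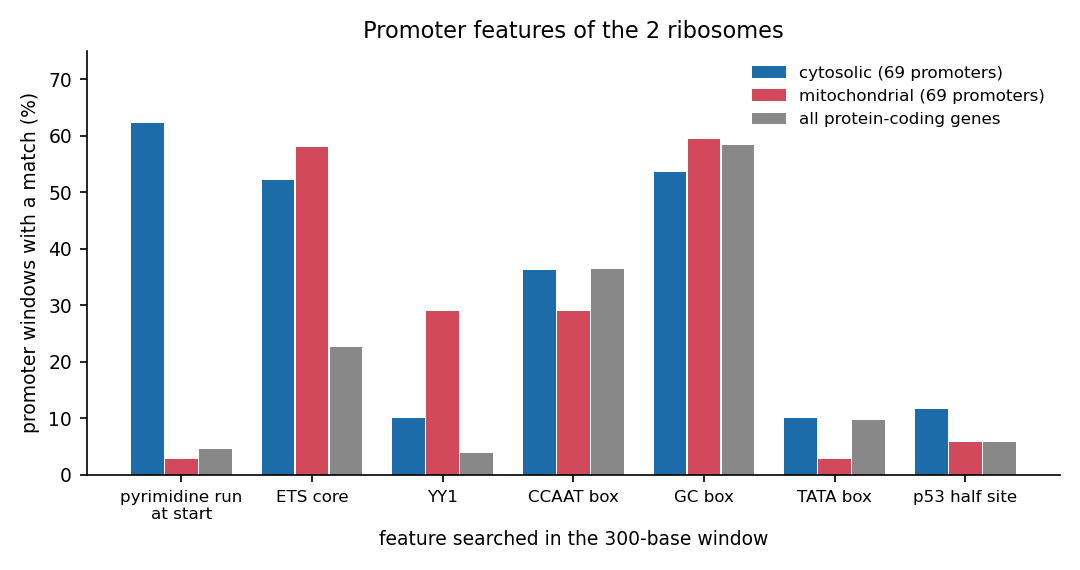
Share of promoter windows of 300 bases (%, y axis) that hold each feature (x axis), for 69 cytosolic, 69 mitochondrial and all 15812 protein-coding promoters matched. The bars of the 2 ribosomes differ most for the run of pyrimidines across the start, 62.3% against 2.90%, and both ribosomes exceed all genes for the ETS core.

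The consensus of the p53 response element was searched in these windows. Its decamer, searched by name as the standard degenerate consensus, was in 8 cytosolic promoters (11.6%) and 4 mitochondrial promoters (5.80%), beside 5.91% of all. A pair of decamers with a spacer of 0 to 13 bases was in 0 of 138 members and in 3 of 15812 promoters. Of the 8 cytosolic genes with a decamer (RPL13, RPL29, RPL37A, RPLP0, RPS18, RPS23, RPS27 and RPS27A), RPL13 had a peak. A match is a run of letters and not a site, and its absence says only that these letters were not in this window.

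Motif shares of members with a peak rest on few genes. Of the 14 cytosolic genes with a peak in any library and a start entry, 8 had the run of pyrimidines (57.1%), beside 35 of 55 without a peak (63.6%). By library the 2 large lists went opposite ways. In p53WT 2, 2 of 43 cytosolic genes with the run had a peak (4.65%), against 4 of 26 without it (15.4%). In CASM34 2 it was 6 of 43 (14%) against 2 of 26 (7.69%). The ETS core was in 6 of the 14 genes with a peak and 30 of the 55 without. GGGCGG was in 9 of 14 (64.3%) and 28 of 55 (50.9%). All 4 mitochondrial genes with a peak held GGGCGG, beside 59.4% of mitochondrial promoters. Of all protein-coding genes, 75% of those with a peak in p53WT 2 and 73.1% of those with one in CASM34 2 held it, beside 58.3% overall. AAGATGGC was in 0 of the 14 and in 0 of the 4 mitochondrial genes with a peak. The 14 had a median GC content of 63.7% and the 55 one of 58.7%. Over all protein-coding genes the median was 62.7%, and it was 68.7% among those with a peak in p53WT 2 and 67.8% in CASM34 2. A peak near either gene end thus went with a higher promoter GC content in all genes as in cytosolic members. The part of base composition was not tested.

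On chromosome 19, which carries 12 of the 88 cytosolic genes, RPS16 and RPS19 were called in p53WT 2, RPL36 and RPS19 in CASM34 2, RPS15 in p53WT 1 and RPS19 in CASM34 1. Of 1451 protein-coding genes on that chromosome, 4.89% had a peak in p53WT 2, 3.58% in CASM34 2, 0.207% in p53WT 1 and 0.482% in CASM34 1. Chromosome 19 was singled out after these values were seen.

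Cytosolic ribosomal protein genes are frequent hosts of snoRNA genes, whose products guide the modification of ribosomal RNA. A snoRNA gene lay within 30 of the 88 (34.1%, 63 snoRNA genes), within 2 of the 77 mitochondrial genes (2.60%) and within 2.63% of all protein-coding genes. Of the 30 hosts, 2 had a peak in p53WT 2 (6.67%) and 3 in CASM34 2 (10.0%), against 6 (10.3%) and 9 (15.5%) of the 58 others. Among all hosts the shares were 14.8% and 10.3%. Hosting a snoRNA thus went with a higher share over all genes but not among the cytosolic ribosomal protein genes, on counts of 2 and 3; the difference was not tested.

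Pseudogenes of these genes were searched as well. In p53WT 2, 8 of 1989 cytosolic ribosomal protein pseudogenes had a summit within 2 kb (0.402%), beside 1.44% of all pseudogenes. In CASM34 2 there were 7 (0.352%), beside 1%, in p53WT 1 there was 1, beside 0.282%, and in CASM34 1 there was 0, beside 0.324%. None of the 99 mitochondrial ribosomal protein pseudogenes had one in any library. The share of copies with a peak was thus below that of all pseudogenes and below that of the parent genes. All pseudogenes were likewise below all protein-coding genes, at 1.44% against 10.3% in p53WT 2. This is a description with no test.

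Other genes of protein synthesis, taken from lists grouped by function, had peaks at rates near the background or on counts too small to read. Initiation factors had 6 of 39 in p53WT 2 (15.4%, beside 10.3% of all genes) and 1 of 39 in CASM34 2 (2.56%, beside 6.96%). The 6 were EIF2B4, EIF3B, EIF4A3, EIF4G2, EIF4H and EIF5, and the 1 was EIF3A, a scaffold of the eIF3 complex. Elongation and release factors and related genes had 2 and 3 of 16. EEF1A1, which delivers aminoacyl-tRNA to the ribosome, and PABPC1, which binds poly(A) tails, were called in both libraries. Their −log10 q was 2.02 and 4.27 in p53WT 2 and 2.45 and 4.0 in CASM34 2. The PABPC1 summits lay apart, at 100722687 in p53WT 2 and 100720995 in CASM34 2 on chromosome 8. Overlap of the peaks at these 2 genes was not examined. The remaining call in CASM34 2 was NAP1L1 (−log10 q of 1.33), listed as a related gene and not an elongation or release factor.

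Ribosome biogenesis factors had 6 of 60 in p53WT 2 (10.0%) and 4 of 60 in CASM34 2 (6.67%), nearly the shares of all genes. WDR43 and RRS1 were called in both, and NCL, NMD3, NIP7 and NOB1 in p53WT 2 and NOP16 and RIOK1 in CASM34 2. The RRS1 summits lay apart, at 66432631 in p53WT 2 and 66429588 in CASM34 2 on chromosome 8. Being called in both refers here to the gene, and overlap of the peaks was not examined. In the libraries numbered 1 the calls were RRS1 in p53WT 1 (−log10 q of 3.86) and NCL, the gene of nucleolin, in CASM34 1 (2.20). Mitochondrial translation factors had 4 of 29 (NOA1, RMND1, MTG1 and MRM3) and 2 of 29 (DDX28 and MTG2), and mitochondrial aminoacyl-tRNA synthetases 0 of 17 and 1 of 17 (HARS2). The mitochondrial ribosomal proteins with other names, DAP3, AURKAIP1, CHCHD1, GADD45GIP1 and PTCD3, had none in any library, 0 of 5. The count of mitochondrial ribosomal proteins in p53WT 2 (3 of 77) stood beside 4 of 29 for the factors that work with them.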

How the data were processed

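The deposited data were 1 peak list per library. Per the submitters' processing notes, Trim Galore, Bowtie2 and bedtools were used with GRCh38; which caller, control and threshold gave the peaks is not given in the sources used here. Each of the authors' lists gives a fold (ratio of signal over background), a −log10 p, a −log10 q and a score that is 10 times the −log10 q, cut to a whole number. They describe and order peaks within 1 list, and values from different lists stand side by side only as a description.

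Several summits of 1 interval were reduced to that with the largest −log10 p, on chromosomes 1 to 22, X and Y. Genes, strands and promoters came from RefSeq tables of GRCh38.p14. Positions are 1-based. Peaks of 2 libraries were the same when they overlapped by at least 1 bp. Exons and introns were not separated, since no exon table was used.

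Python 3.11.15, pandas 2.3.3 and scipy 1.17.1 were used, and gene calling was tested on simulated summits. No test of significance was run. Named genes were members with a peak in 2 or more libraries or in a library numbered 1, the 5 strongest per ribosome in each library numbered 2, the 6 MDM2-linked genes and the 3 nearest on each side of the 2 kb limit; the rest of the called members were added with their values known. The members and lists were chosen with earlier results of these data known. The list of cytosolic ribosomal proteins with other names is not reported here.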

Additional observations from a re-analysis of the deposited data

Results flagged for a closer look

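Peaks were also sought at pseudogenes of the cytosolic ribosomal protein genes, which belong to neither gene set. As for every peak described here, the control is not given in the sources used. Of 1989 such copies, 8 had a summit within 2 kb in p53WT 2 (0.402%) and 7 in CASM34 2 (0.352%), against 1 in p53WT 1 and 0 in CASM34 1. They were listed because more than 3 had a peak, the limit that a count of 0 allows. The shares were below those of all pseudogenes, 1.44% and 1%. RPL36P7 was named in both libraries numbered 2, with summits at 197581779 and 197581802 on chromosome 3, 1150 and 1173 bases outside it. RPSAP52 had a summit in p53WT 1 (−log10 q of 2.07) and CASM34 2 (4.49), 1138 and 956 bases from HMGA2.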

How the results depend on the processing

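The replicate block paired libraries by the number in their titles, and whether such a pair was handled together is not known. As the mean of the differences within each number, it gave -2.84 and 1.30 percentage points for cytosolic and mitochondrial genes. These equal the group differences by construction, with SDs of 2.41 and 1.84 over the 2 differences. Leaving out 1 library moved the cytosolic difference between -8.52 and 2.84 points (1.14 without p53WT 1 and 2.84 without CASM34 2, both of changed sign), and the mitochondrial one between -0.65 (without p53WT 2) and 3.25. Cytosolic minus mitochondrial, averaged over 4 libraries, was 5.24 points, ran from 2.87 (without CASM34 2) to 6.60, and was 1.10 with peaks of −log10 q 5 or more. With peaks of −log10 q 3 or more it was 2.80, and with lists of equal length 2.52. Of 74 recomputed counts, 51 stayed within 1.5 times and 23 did not. The 51 include the mitochondrial counts of the libraries numbered 1, which were 0 at every setting. Counts at starts were out of 69 genes of each ribosome, not 88 or 77. The tally is therefore no measure of how stable the results were. Of the 3 members at the same peak in both libraries numbered 2, RPL7 was lost when the overlap had to cover 50% of each peak. Depth was unknown, which limits every absence.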

Other observations

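The genes of the cytosolic ribosome have many retrocopies in the genome, and the 2 ribosomes differed in this too. The RefSeq table names 1989 pseudogenes of the 88 cytosolic genes (median 13.5 per gene) and 99 of the 77 mitochondrial genes (median 1.0). The 19 cytosolic genes with a peak in any library had a median of 20.0 copies, and the others 13. RPS19 had 7, and RPL7 had 61. The part of these copies in the peaks was not tested.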
